A study of Oryza sativa with 6 samples.

Results

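The genes described here encode the nuclear subunits of photosystem II and PsbS, the photoprotective protein that works beside it. They were chosen by locus ID: PsbO (Os01g0501800), PsbP (Os07g0141400), PsbQ (Os07g0544800), PsbR (Os07g0147500 and Os08g0200300), PsbW (Os01g0773700), PsbX (Os03g0343900), PsbY (Os08g0119800) and PsbS (Os01g0869800 and Os04g0690800). All 10 were among the 19696 rows of the deposited table. Transcripts were measured by RNA sequencing in rice leaves taken at 3 weeks from plants grown on half-strength MS, a defined culture medium. The 3 libraries of ZH11, a japonica rice variety, served as wild type, and 3 libraries came from DGP1-OE1, a line that overexpresses DGP1. Every sample title, in both genotypes, also carries the label Ck. The comparison asks how DGP1 bears on leaf metabolism. DGP1-OE1 is 1 line, the promoter that drives DGP1 is not given in the sources used here, and nothing in the labels ties a replicate to a plant or pool of its own, so the p-values speak for the spread of these libraries alone, part or all of which may be technical.

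Photosystem II is the thylakoid complex that uses light to split water and passes the electrons on to plastoquinone. Its reaction centre is encoded in the plastid, whereas PsbO, PsbP and PsbQ, which cap the manganese cluster on the lumen side, are encoded in the nucleus, as are PsbR and the small membrane subunits PsbW, PsbX and PsbY. PsbS is not needed for water splitting. It senses the acidity of the lumen and switches on the dissipation of excess light as heat.

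Values are FPKM, fragment counts scaled to transcript length and to library size, as the authors deposited them. They are scaled to length, so levels of different genes can be compared. FPKM summed to between 686327 and 752617 per library, and the depth in reads is unknown. The 4 leaf markers, genes of Rubisco and its activase, summed to between 37450 and 67040 FPKM in the 6 libraries. Of 3 root markers only 1 was listed, at no more than 19.9 FPKM, and of 3 endosperm markers only 1, at no more than 2.68 FPKM. The locus IDs of these markers come from general knowledge of the rice annotation. DGP1 itself was not checked, because no source used here gives its locus ID. DGP1-OE1 replicate 2 stood apart for the genes described here. It was the lowest of the 6 libraries for 6 of the 10, against 20.9% of the 994 tested rows with a mean of at least 100 FPKM. Results are therefore also given without it, with all ZH11 libraries kept.

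The PsbR gene Os07g0147500 was the only member that passed the test, and it fell. PsbR is a small lumen-facing protein that in Arabidopsis helps PsbP to bind stably. Its wild-type level was 18.1 FPKM in replicate 1, 303 FPKM in replicate 2 and 448 FPKM in replicate 3. In DGP1-OE1 it was listed at 0.0411 FPKM in replicate 1 and at 0 in replicates 2 and 3. The groups did not overlap, but ZH11 replicate 1 lay far below the other wild-type libraries. The log2 difference (DGP1-OE1 minus ZH11, on log2(FPKM + 1)) was -7.09, with a 95% interval of -9.06 to -5.11 (limma, Benjamini-Hochberg adjusted p = 0.00555). Limma draws the spread of each row toward that of rows of similar level. The interval may thus be too narrow for a gene that varied this much in the wild type. The test called 0.197% of the 18270 rows tested lower and 0.159% higher. The gene passed the filter on low values only through its ZH11 libraries, so it had to differ if it was tested at all. Its call was lost with robust moderation (limma, adjusted p = 0.234), where adjusted p ran from 4e-06 to 0.234 over 15 other settings.

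The spread of Os07g0147500 among the wild-type libraries was wide. The highest ZH11 library held 24.8 times the level of the lowest. Of 947 tested rows with a ZH11 mean of at least 100 FPKM, 6 including this gene had a ratio as large, and the median ratio was 1.38. For the other members the same ratio lay between 1.14 for PsbO and 3.14 for the PsbS gene Os04g0690800. Without ZH11 replicate 1 the log2 difference of Os07g0147500 was -8.51, and without ZH11 replicate 3 it was -6.23.

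**Figure D1:**
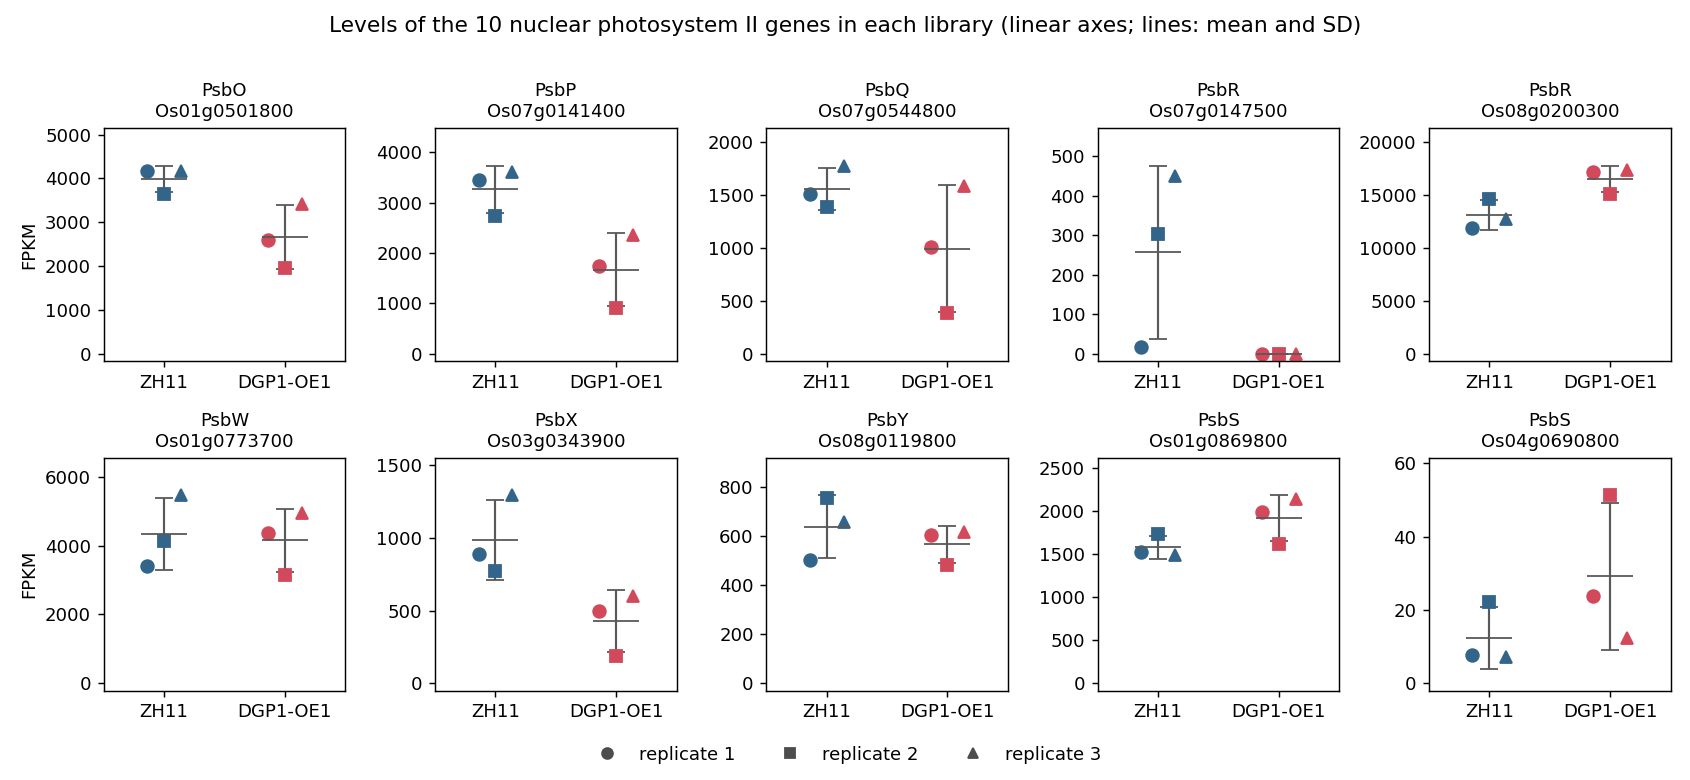
FPKM of each gene (vertical axes, linear and different for each gene) in the 3 ZH11 libraries (blue) and the 3 DGP1-OE1 libraries (red). Marker shape gives the replicate, and the lines give mean and SD. Os07g0147500 is at or near 0 in every DGP1-OE1 library, while Os08g0200300 lies between 11901 and 17398 FPKM in all 6.

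The other PsbR gene, Os08g0200300, was the most abundant member in every library and did not pass the test. It stood at 11901, 14648 and 12777 FPKM in ZH11 and at 17161, 15159 and 17398 FPKM in DGP1-OE1. All DGP1-OE1 libraries lay above all ZH11 libraries, by a narrow margin between DGP1-OE1 replicate 2 and ZH11 replicate 2. Its log2 difference was 0.34, with a 95% interval of -0.44 to 1.12 (limma, adjusted p = 0.865). Of all rows it ranked between 3 and 4 by abundance in each library. It held 44.1% ± 4.19 of the FPKM summed over the 10 genes in ZH11 and 57.7% ± 5.42 in DGP1-OE1 (SD, n = 3 each).

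The 2 PsbR genes therefore differed in level in each library and in how they compared between the genotypes. Os07g0147500 made up 0.152%, 2.03% and 3.39% of PsbR FPKM in ZH11 replicates 1, 2 and 3, and at most 0.000239% in any DGP1-OE1 library. On the log2(FPKM + 1) scale Os07g0147500 minus Os08g0200300 came to -9.28, -5.59 and -4.83 in the wild-type libraries, against -14.01, -13.89 and -14.09 in DGP1-OE1. The groups did not overlap. The mean difference between genotypes was -7.43 log2 units (two-sided exact permutation p = 0.1, which is the lowest value that 3 against 3 libraries can give, and 0.2 adjusted over the 2 paralog pairs compared). With Os07g0147500 at or near 0, the DGP1-OE1 values and their narrow spread are set by the pseudocount and the level of Os08g0200300. At a pseudocount of 0.1 the mean difference was -10.58. The ratio therefore repeats the near absence of Os07g0147500, a gene that passed the filter only through its ZH11 libraries. The mean of Os08g0200300 was 3464 FPKM higher in DGP1-OE1 than in ZH11, and the ZH11 mean of Os07g0147500 was 257 FPKM. How the authors' counting divided reads between these paralogs is not given in the sources used here, so the split between them is uncertain and its part in these values was not tested.

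**Figure D2:**
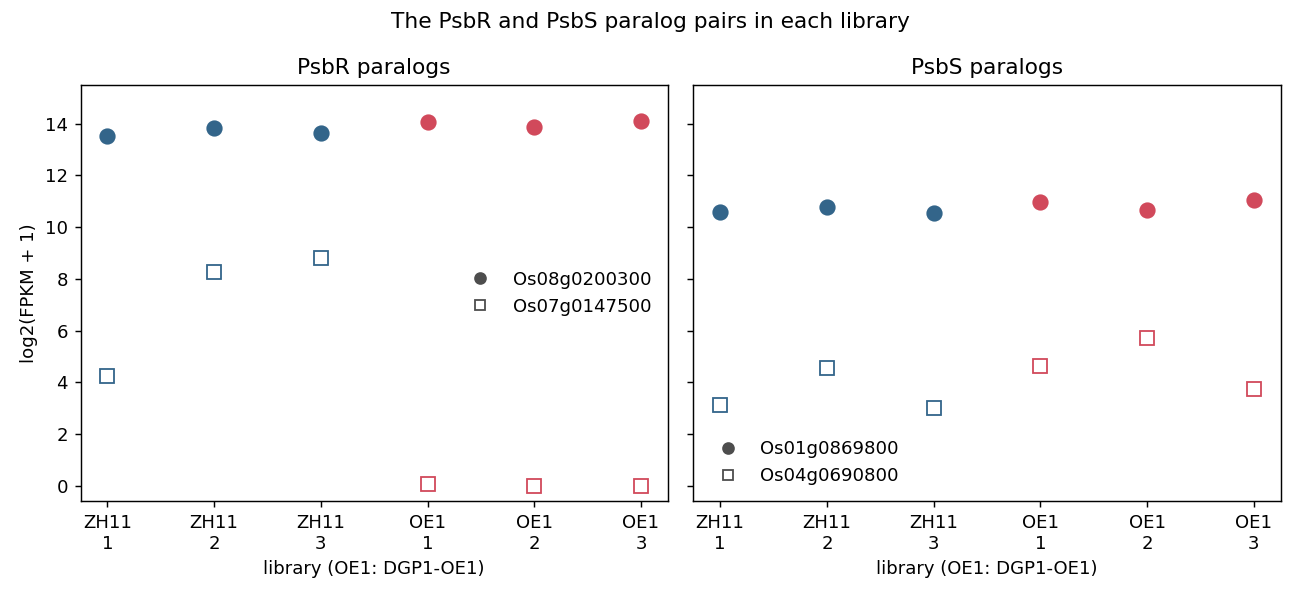
Level on the log2(FPKM + 1) scale (vertical axis) of the PsbR genes (left) and the PsbS genes (right) in each library, with ZH11 in blue and DGP1-OE1 in red. Filled circles mark the more abundant gene of each pair. The distance between the PsbR genes is 13.89 to 14.09 log2 units in DGP1-OE1 and 4.83 to 9.28 in ZH11.

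PsbO, PsbP and PsbQ, the extrinsic proteins of the water-splitting site, had lower means in DGP1-OE1, and none passed the test. PsbO, which stabilises the manganese cluster, stood at 4164, 3655 and 4167 FPKM in ZH11 and at 2589, 1962 and 3422 FPKM in DGP1-OE1. The groups did not overlap, with DGP1-OE1 replicate 3 close to ZH11 replicate 2. The DGP1-OE1 mean was 0.665 times that of ZH11, with a log2 difference of -0.62 and a 95% interval of -1.25 to 0.01 (limma, adjusted p = 0.575). Without DGP1-OE1 replicate 2 that ratio of means was 0.752.

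PsbP, which helps to hold calcium and chloride at the site, stood at 3447, 2735 and 3610 FPKM in ZH11. The DGP1-OE1 libraries held 1750, 916 and 2346 FPKM. Every DGP1-OE1 library lay below every ZH11 library. The DGP1-OE1 mean was 0.512 times that of ZH11, and the log2 difference was -1.06 with a 95% interval of -1.81 to -0.3 (limma, unadjusted p = 0.0103, adjusted p = 0.367). Without DGP1-OE1 replicate 2 the log2 difference was -0.68.

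PsbQ, which acts with PsbP, stood at 1506, 1391 and 1778 FPKM in ZH11 and at 1004, 387 and 1586 FPKM in DGP1-OE1. The groups overlapped, because DGP1-OE1 replicate 3 lay inside the wild-type range. Its log2 difference of -0.86 had a 95% interval of -1.79 to 0.06 (limma, adjusted p = 0.603). The difference rested largely on DGP1-OE1 replicate 2, and without that library it was -0.30.

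The small membrane subunits did not share 1 pattern. PsbX, a small subunit of the complex's membrane core, stood at 887, 770 and 1295 FPKM in ZH11 and at 501, 189 and 599 FPKM in DGP1-OE1. The groups did not overlap. The DGP1-OE1 mean was 0.436 times that of ZH11, and the log2 difference of -1.32 (95% interval -2.17 to -0.46) was the lowest of the 9 genes that did not pass the test (limma, unadjusted p = 0.00599, adjusted p = 0.305). Of all tested rows 0.876% had a difference as low or lower. Without DGP1-OE1 replicate 2 the difference was -0.81.

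PsbW, which in Arabidopsis stabilises the supercomplexes of photosystem II with its antenna, stood at 3422, 4136 and 5471 FPKM in ZH11. It stood at 4362, 3156 and 4948 FPKM in DGP1-OE1. The groups overlapped almost fully. The log2 difference was -0.06 with a 95% interval of -0.74 to 0.62 (limma, adjusted p = 0.978). Its sign turned without DGP1-OE1 replicate 2 (0.12), without ZH11 replicate 3 (0.12) and with quantile normalization (0.32).

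PsbY, a small subunit that in Arabidopsis is tied to cytochrome b559, stood at 501, 756 and 655 FPKM in ZH11. The DGP1-OE1 libraries held 604, 480 and 615 FPKM. The groups overlapped. The log2 difference was -0.16 with a 95% interval of -0.66 to 0.34 (limma, adjusted p = 0.908). For PsbW and PsbY a difference of 1 log2 unit in either direction lay outside the interval.

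**Figure D3:**
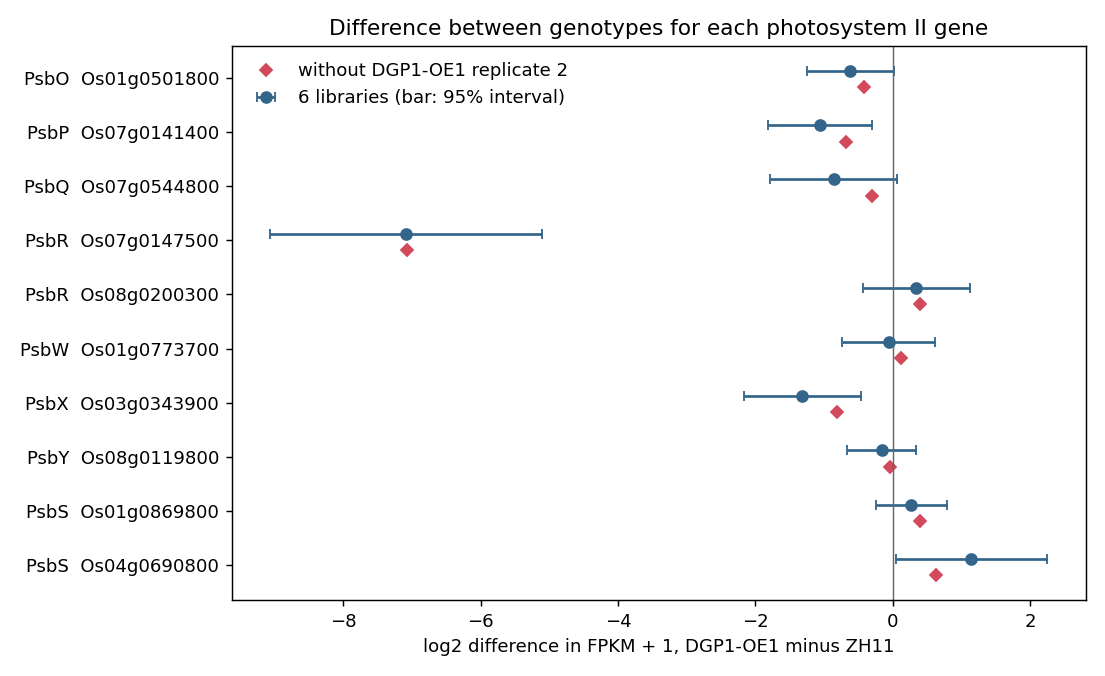
Log2 difference in FPKM + 1 (horizontal axis, DGP1-OE1 minus ZH11) for each gene, with its 95% interval from limma (blue) and the value without DGP1-OE1 replicate 2 (red). PsbR Os07g0147500 lies at -7.09, and the other genes lie between -1.32 and 1.14.

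PsbS did not pass the test for either gene. Os01g0869800, the more abundant PsbS gene, stood at 1525, 1734 and 1490 FPKM in ZH11 and at 1997, 1623 and 2140 FPKM in DGP1-OE1. The groups overlapped, because DGP1-OE1 replicate 2 lay below ZH11 replicate 2. Its log2 difference was 0.27 with a 95% interval of -0.25 to 0.79 (limma, adjusted p = 0.82). Os04g0690800 was a minor transcript, at 7.66, 22.1 and 7.06 FPKM in ZH11 and 23.8, 51.3 and 12.4 FPKM in DGP1-OE1. The groups overlapped, and replicate 2 was the highest library in each genotype. The log2 difference was 1.14 with a 95% interval of 0.04 to 2.24 (limma, unadjusted p = 0.0438, adjusted p = 0.548), and it was 0.63 without DGP1-OE1 replicate 2.

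The PsbS genes were compared within each library as the PsbR genes were. Os04g0690800 made up 0.5%, 1.26% and 0.472% of PsbS FPKM in the wild type, against 1.18%, 3.06% and 0.576% in DGP1-OE1. Os01g0869800 minus Os04g0690800 came to 7.07 ± 0.73 on the log2(FPKM + 1) scale in ZH11 and to 6.2 ± 1.19 in DGP1-OE1 (SD, n = 3 each). The groups overlapped, and the difference between their means was -0.87 log2 units (exact permutation test, two-sided p = 0.3, also 0.3 adjusted over the 2 pairs). DGP1-OE1 replicate 2 stood out here in the opposite direction to the extrinsic proteins, with the highest level of Os04g0690800.

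The order of the levels was much alike in the genotypes. In ZH11 it ran from PsbR Os08g0200300 (13109 FPKM on average) through PsbW, PsbO, PsbP, PsbS Os01g0869800, PsbQ, PsbX, PsbY and PsbR Os07g0147500 to PsbS Os04g0690800 (12.3 FPKM). Neighbours whose ZH11 libraries overlapped were PsbW and PsbO, PsbS Os01g0869800 and PsbQ, and the last 2 in the order. In DGP1-OE1 the first 3 kept their places. PsbS Os01g0869800 stood above PsbP in 2 of 3 DGP1-OE1 libraries, and PsbY above PsbX in 3 of 3, although their ranges overlapped. In ZH11 PsbP stood above that PsbS gene, and PsbX above PsbY, in 3 of 3 libraries with no overlap. PsbR Os07g0147500 moved to the last place.

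Levels relative to PsbO in the same library do not depend on how libraries were scaled, apart from the pseudocount. On the log2 scale Os08g0200300 minus PsbO was 1.71 ± 0.26 in ZH11 and 2.67 ± 0.31 in DGP1-OE1 (SD, n = 3 each). PsbS Os01g0869800 minus PsbO was -1.34 ± 0.23 and -0.44 ± 0.21, and PsbW minus PsbO was 0.1 ± 0.35 and 0.66 ± 0.11. For these 3 genes every DGP1-OE1 library lay above every ZH11 library, as was true of 26.1% of all tested rows set against PsbO, whose own mean was lower in DGP1-OE1. A count of 3 in 9 ratios is close to that share. PsbP minus PsbO was -0.3 ± 0.11 in ZH11 and -0.74 ± 0.31 in DGP1-OE1, and PsbX minus PsbO was -2.05 ± 0.32 and -2.75 ± 0.54, with every DGP1-OE1 library below. PsbR Os07g0147500 minus PsbO was -4.86 ± 2.53 and -11.32 ± 0.4, also without overlap. Its DGP1-OE1 value depends on the pseudocount, and it passed the filter only through its ZH11 libraries. Of all tested rows 0.646% lay lower relative to PsbO without overlap. The ratios of PsbQ, PsbY and PsbS Os04g0690800 to PsbO overlapped between the genotypes. These ratios are descriptions and were not tested, and they share the PsbO values.

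**Figure D4:**
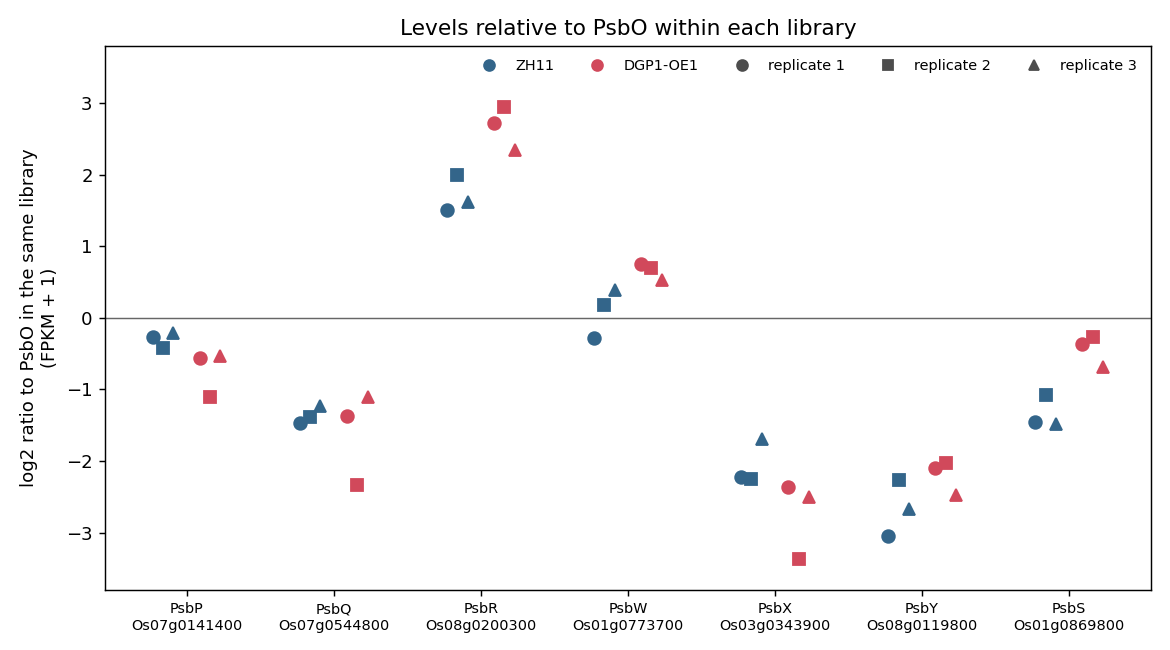
Log2 ratio of each gene to PsbO in the same library (vertical axis, FPKM + 1), with ZH11 in blue, DGP1-OE1 in red and marker shape giving the replicate. The minor paralogs Os07g0147500 and Os04g0690800 are left out. PsbR Os08g0200300, PsbW and PsbS Os01g0869800 lie higher relative to PsbO in DGP1-OE1, and PsbP and PsbX lie lower.

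All 10 genes were tested. An unadjusted p under 0.05 was reached by 4 of them (PsbR Os07g0147500, PsbP, PsbX and PsbS Os04g0690800) and by 8.8% of all tested rows. The groups did not overlap for 4 genes that were lower in DGP1-OE1 (PsbO, PsbP, PsbX and PsbR Os07g0147500) and for 1 that was higher (PsbR Os08g0200300). PsbR Os07g0147500 is in both counts of 4, but it passed the filter only through its ZH11 libraries. Its lack of overlap was therefore fixed once it was tested. Over all tested rows 7.19% were lower and 6.72% higher without overlap. Among rows with a mean of at least 100 FPKM, which 9 of the 10 genes reached, 8.55% were lower and 16.5% higher without overlap. The median log2 difference was -0.391 over the 10 genes, -0.00959 over all tested rows and 0.134 over the rows with a mean of at least 100 FPKM. Without DGP1-OE1 replicate 2 the median of the 10 genes was -0.17.

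The 10 genes together took 4.14% ± 0.145 of all FPKM in ZH11 and 3.91% ± 0.542 in DGP1-OE1 (SD, n = 3 each). The ZH11 libraries (3.99% to 4.28%) lay within the range of the DGP1-OE1 libraries (3.32% to 4.39%). Without the PsbR genes the other 8 took 2.253%, 2.085% and 2.492% in the wild type, against 1.714%, 1.216% and 2.082% in DGP1-OE1. DGP1-OE1 replicate 2 was the lowest, and DGP1-OE1 replicate 3 lay only just below the lowest ZH11 library. In bulk leaf tissue, fewer photosynthetic cells and less of a transcript per cell cannot be told apart. The leaf markers summed to 38258, 37834 and 42335 FPKM in ZH11, and to 54402, 37450 and 67040 FPKM in DGP1-OE1. DGP1-OE1 replicates 1 and 3 lay above every ZH11 library and replicate 2 just below. Their part in the results was not tested.

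Other nuclear photosystem genes were set beside these 10, from lists of locus IDs taken from general knowledge of the rice annotation, which no source used here annotates. The lists were chosen with earlier results of these data known, so their shares are not a separate result. All listed genes were in the table and were tested. Of 8 antenna genes of photosystem II, whose proteins bind chlorophyll and feed it with light energy, 1 fell and 0 rose by the limma test. An unadjusted p under 0.05 was reached by 7 of the 8, against 8.8% of all tested rows. The gene that fell, Os01g0720500, stood at 346, 160 and 771 FPKM in ZH11 and at 3.2, 1.34 and 5.57 FPKM in DGP1-OE1, a log2 difference of -6.45 (limma, adjusted p = 0.000138). The antenna list had a median log2 difference of -1.51, or -0.866 without DGP1-OE1 replicate 2. Of its 8 genes 7 were lower without overlap, against 7.19% of all tested rows.

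Of 9 nuclear subunits of photosystem I, 0 passed the limma test (3 had an unadjusted p under 0.05), 5 were lower without overlap, and the median difference was -0.622. Without DGP1-OE1 replicate 2 that median was -0.359. Of 4 assembly and repair factors of photosystem II, 0 passed the test (limma, adjusted p from 0.272 to 0.917, unadjusted p under 0.05 for 2). Their median difference was 0.214 (0.277 without DGP1-OE1 replicate 2), with 1 gene lower and 2 higher without overlap. Of all tested rows, 8.8% had an unadjusted p under 0.05, 7.19% were lower without overlap and 6.72% were higher without overlap. DGP1-OE1 replicate 2 was the lowest library for 8 of 8 antenna genes, 9 of 9 photosystem I genes and 1 of 4 assembly factors. By the median of each list it held 0.273 times, 0.522 times and 0.874 times the mean of DGP1-OE1 replicates 1 and 3, against 0.665 times for the 10 genes described here and 1.03 times for rows with a mean of at least 100 FPKM. For the 4 leaf markers it was 0.485 times, but they did not move together. The Rubisco genes were at 0.316 to 0.562 times and the activase gene at 1.34 times. In ZH11 replicate 2 the activase gene was likewise higher, at 1.37 times the mean of ZH11 replicates 1 and 3. ZH11 replicate 2 was also the lowest of its own group for PsbO, PsbP, PsbQ and PsbX, for 8 of 8 antenna genes and for 5 of 9 photosystem I genes. By the median it held 0.72 times the mean of ZH11 replicates 1 and 3 for the antenna list, 0.903 times for photosystem I and 0.769 times for the leaf markers, against 1.04 times for the 10 genes and 1.11 times for rows with a mean of at least 100 FPKM. Whether the lists differ from each other was not tested.

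**Figure D5:**
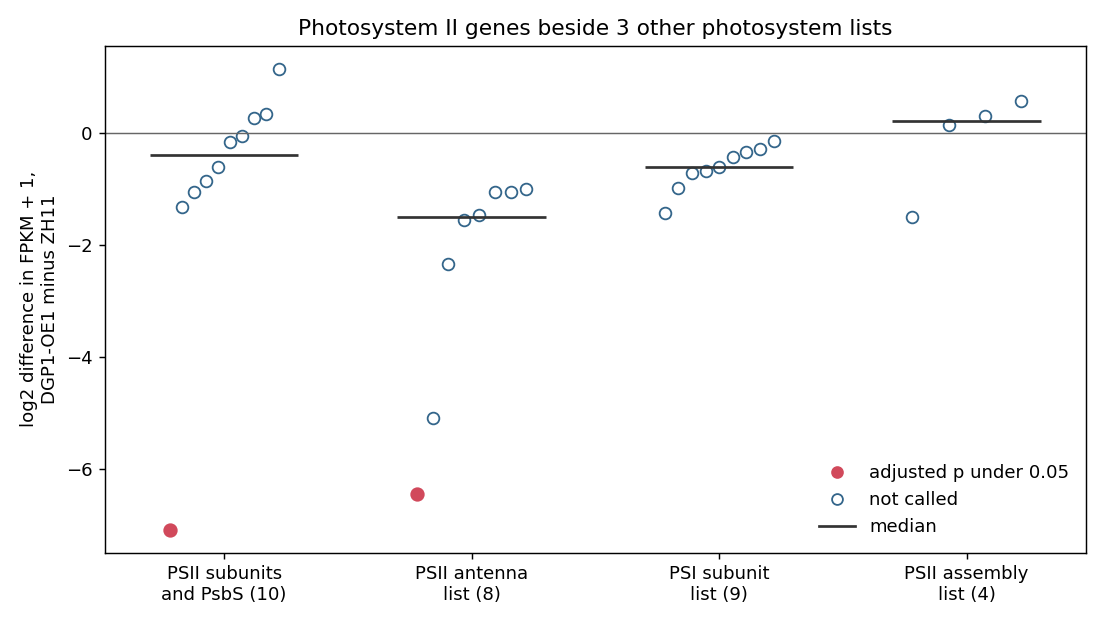
Log2 difference in FPKM + 1 (vertical axis, DGP1-OE1 minus ZH11) of each gene in the 4 lists, with filled red points for genes past the adjusted threshold and black lines for medians. All antenna and photosystem I points lie below 0, as do 7 of the 10 genes described here. PsbR Os08g0200300 and the PsbS genes lie above 0.

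The tested rows most like each PsbR gene over the 6 libraries were found by the root-mean-square difference of their log2(FPKM + 1) values, each row centred on its own mean. Os07g0147500 was most like Os01g0720500, the antenna gene above (1.59 log2 units), and next Os07g0142100 (2.03 log2 units), against a spread of 3.82 for Os07g0147500 itself. Os07g0142100 stood at 8087, 4460 and 13113 FPKM in ZH11 and at 257, 103 and 739 FPKM in DGP1-OE1. Rows picked for likeness to Os07g0147500 over these libraries are bound to be lower in DGP1-OE1, so their difference is not a separate result. Unlike Os07g0147500, Os01g0720500 and Os07g0142100 had their lowest wild-type level in ZH11 replicate 2. Os08g0200300, whose own spread was only 0.202, was most like Os01g0565900 (0.0185) and Os03g0792600 (0.0368), which stood at 11.1 to 17 and 3.61 to 5.55 FPKM.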

How the data were processed

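Leaf RNA was sequenced in 3 libraries each of ZH11 and DGP1-OE1, grouped and numbered by the sample titles. The authors deposited 1 table of FPKM. The submitters' processing notes list HISAT2 2.0, StringTie 1.3.0 and Bowtie 0.12.2 without their roles. The genome build in these notes is a mouse build, although the rows carry rice locus IDs, and the rice build used is not given in the sources used here. Overexpressor columns are headed DGP1-OE with a number, taken as the replicate of DGP1-OE1. No genome coordinates or sequences were used. Gene names follow the rule that chose the genes, since 0 of the 10 locus IDs matched the RefSeq gene table used here.

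Depth is unknown: no step worth 1 read was found among low values, where at most 3.7% of rows under 0.5 FPKM in a pair of libraries shared a ratio. From the deposited FPKM, rows with at least 1 FPKM in at least 3 of 6 libraries (18270) were fitted on log2(FPKM + 1) with limma 3.58.1 (R 4.3.3), genotype only, with an intensity trend. P-values are two-sided and Benjamini-Hochberg adjusted over all these rows, with a threshold of 0.05. Fold changes on the log2(FPKM + 1) scale are too small for low genes. Simulated data with known changes were used to test the fit. Paralog ratios were compared by exact permutation tests (scipy 1.17.1). The genes named are the 10 members, 2 rows most like each PsbR gene, and a row a result turns on. Members and lists were chosen with earlier results of these data known. The alternatives were another pseudocount (0.1), other filters (none, or 5 FPKM), other scalings (equal totals, median-of-ratios, quantile), no trend, robust moderation, a replicate block and leaving out each library.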

Additional observations from a re-analysis of the deposited data

How the results depend on the processing

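PsbR Os07g0147500 had a negative difference in all 15 other fits, from -10.24 (pseudocount 0.1) to -6.23, and -8.51 to -6.23 when each library was left out in turn. Its call was lost in 1 of them, robust moderation (-7.09, limma, adjusted p = 0.234), which left 0 members lower and 4 with an unadjusted p under 0.05. The cause was not tested. PsbW was the only member whose sign turned (0.32 with quantile normalization, and -0.22 to 0.12 over the fits leaving out a library). The PsbR ratio lay between -10.58 and -6.56 and the PsbS ratio between -1.43 and -0.25 over their alternatives. Leaving out libraries moved the difference between the genotypes in the members' summed FPKM from -749 to values between -2785 and 1786. Of all rows tested, 29 were higher and 36 lower. Leaving out each library gave 16 to 39 and 9 to 42, and 1 to 2 antenna genes lower (2 without DGP1-OE1 replicate 2). Lowered rows numbered 21 at pseudocount 0.1 and 14 when no trend was fitted. With the replicate number as a block 130 rows were higher and 139 lower, as were 1 member (PsbS Os04g0690800, limma, adjusted p = 0.0386) and 2 members (PsbR Os07g0147500 and PsbX, limma, adjusted p = 0.0193 for PsbX). The block moved no other member past the threshold. For the ratios a block cannot change the mean difference (-7.43 for PsbR, -0.87 for PsbS), and with 3 pairs an exact sign-flip permutation test cannot go below p = 0.25, the value of each ratio. Deviations of same-numbered libraries from their group means correlated at 0.0165, 0.375 and 0.137. Not every library correlated best with its own number, so the numbers were not taken as pairs. The replicate 2 libraries did, at 0.375, against -0.279 to -0.0829 with other numbers of the other genotype. Results without DGP1-OE1 replicate 2 keep ZH11 replicate 2, so anything these libraries share is taken out of 1 genotype only. Since no depth is known, a value listed at 0 does not show that no transcript was present. Of the 19696 rows, 56, 165 and 637 were listed at 0 in DGP1-OE1 replicates 1, 2 and 3. The part of coverage in the zeros was not tested.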

Other observations

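The rows next to PsbR Os07g0147500 in locus ID order did not pass the test, a look that was chosen after the values were seen. Of the 5 tested rows on each side, 0 were called (limma, adjusted p from 0.68 to 0.98, and 0 with an unadjusted p under 0.05). Their log2 differences lay between -0.76 and 0.29, with a median of -0.325. Os07g0142100, the second most like row, stood 10 places before it among tested rows, and PsbP Os07g0141400 stood 15 places before it.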
